A study of Mus musculus with 2 samples.

Results

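The nuclear respiratory chain genes are the genes in the cell nucleus that code for subunits of the oxidative phosphorylation complexes of the mitochondrion. They were taken as every gene whose symbol begins with Ndufa, Ndufb, Ndufc, Ndufs, Ndufv, Sdha to Sdhd, Uqcr, Cox4 to Cox8 or Atp5, which gave 98 of the 27635 genes measured. By symbol, 47 belong to complex I, 8 to complex II, 9 to complex III, 16 to complex IV and 18 to complex V, the ATP synthase. By role, 17 are core subunits, 67 are accessory subunits, 12 are assembly factors (Ndufaf and Sdhaf genes) and 2 are pseudogenes by name. The annotation also lists Ndufb4c as a processed pseudogene, and its reads cannot be separated with certainty from those of Ndufb4. Membership rests on the symbol alone, though the family was picked for description with earlier results of these data known. Cyc1, the cytochrome c1 subunit of complex III, does not match the rule and is counted below with the electron carrier genes.

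The cells came from subcutaneous B16F10 tumours, a mouse melanoma line, 14 days after injection of 1000000 tumour cells per mouse. CD3+ cells were positively selected after Percoll enrichment, and wild-type and Nr4a KO cells, marked by hashtag antibodies, were pooled in 1 BD Rhapsody capture of about 20000 cells. The labels do not say which hashtag marks which genotype, nor whether the knockout was in the whole animal or in T cells alone. Every group below therefore holds an unknown mix of both genotypes, and the 6 hashtags used (A0301 to A0306) are samples of unknown group. Each value is given per hashtag as a range and median, with no test. A B16F10 tumour grows from 1 cell line at a single time point, so the melanoma cells stand for that line alone.

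The mRNA table held 12016 barcodes, of which 11318 had at least 500 genes and at most 25% of counts in MT- genes, the genes on mitochondrial DNA. Counts per kept barcode had a median of 26436 and ran from 4142 to 892142, and 6157 kept barcodes could be given to a hashtag. Although the label calls the sample CD3e-enriched T cells, marker genes named 7892 barcodes T cell-like, 1515 macrophage-like and 1012 melanoma-like. T cell-like barcodes were split by single genes at 5 or more counts: 4115 were CD8 cells (Cd8a or Cd8b1 without Cd4) and 1015 were CD4 cells. Of the CD8 cells, 704 had Tcf7 without Havcr2, the first a gene of naive, memory and stem-like cells and the second of terminally exhausted cells, and 1190 had Havcr2 without Tcf7. Of the CD4 cells, 713 lacked Foxp3, the transcription factor of regulatory T cells, and the rest had it. T cell markers made up 0.679% of counts in CD8 cells, and markers of other classes were present in every group. Macrophage-like cells held 0.248% T cell markers and 0.386% dendritic cell markers, the latter mostly H2-Aa. Plasma cell markers took 0.243% of counts over all Foxp3- CD4 cells, mostly Igha and Igkc, against 0.00887% to 0.0140% in their hashtags. Barcodes were also screened for markers of another class, which had to sum to under 5 counts. For T cell-like barcodes these were the macrophage markers without Ccr2 and the melanoma markers. For macrophage-like and melanoma-like barcodes they were T cell receptor and CD3 genes alone, so other mixtures were not screened. Only 27.5% of CD8 barcodes, 30.2% of macrophage-like and 59.0% of melanoma-like barcodes passed, and the values without the others are given where they differ.

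Complexes I and II feed electrons from NADH and succinate to ubiquinone, complex III passes them to cytochrome c, and complex IV passes them to oxygen. Complexes I, III and IV pump protons, and complex V uses the gradient to make ATP. Mitochondrial DNA codes for a few hydrophobic subunits of complexes I, III, IV and V, while all of complex II and every other subunit are nuclear, so each assembled complex other than complex II draws on both genomes. Several complex IV subunits come as paired isoforms, of which the rarer one is known from muscle, lung, testis or cells at low oxygen.

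Promoter sequence was compared because the genes are known targets of a few shared transcription factors. RefSeq windows of 300 bases (250 before and 50 after each start, GRCm38.p6) were found for 77 of the 98 genes. The NRF1 motif, GCGC and TGCGC with a single base of any kind between, occurred on either strand in 21 of the 77, or 27.3%, against 5.19% of 27025 genes. The ETS motif CCGGAAG, bound by GABPA among others, occurred in 21 of the 77, against 9.93% of all genes. The YY1 motif AAGATGGCG occurred in 8, or 10.4%, against 1.64%, and TATAAA in 7, or 9.09%, against 15.7%. The median GC content of the windows was 57% for these genes and 52.4% for all windows, and motif shares were not corrected for it. A match describes letters in the window and does not show binding. The 3 stretches below, upstream of complex IV genes, are shown because Cox7a1 was nearly limited to the melanoma-like cells below, whereas Cox7a2, its common counterpart, and Cox6a1 were present in every group. They lie at chr7:30183921-30184143 on the plus strand, chr9:79759879-79760103 on the minus strand and chr5:115348982-115349208 on the minus strand, and end at the base before the annotated gene start. Capitals mark matches to the NRF1 motif, with the single variable base included.
Cox7a1: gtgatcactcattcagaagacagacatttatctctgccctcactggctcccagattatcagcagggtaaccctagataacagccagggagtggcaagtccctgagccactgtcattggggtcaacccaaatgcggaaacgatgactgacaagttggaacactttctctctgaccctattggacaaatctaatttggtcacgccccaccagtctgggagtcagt
Cox7a2: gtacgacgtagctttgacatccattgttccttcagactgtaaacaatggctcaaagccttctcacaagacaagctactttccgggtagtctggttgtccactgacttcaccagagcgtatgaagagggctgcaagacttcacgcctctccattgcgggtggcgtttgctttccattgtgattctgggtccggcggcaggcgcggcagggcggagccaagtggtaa
Cox6a1: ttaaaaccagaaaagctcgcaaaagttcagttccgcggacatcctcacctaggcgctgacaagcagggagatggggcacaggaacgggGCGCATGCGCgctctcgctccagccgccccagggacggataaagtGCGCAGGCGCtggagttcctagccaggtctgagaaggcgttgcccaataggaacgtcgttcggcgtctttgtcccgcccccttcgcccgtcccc
Only the Cox6a1 stretch held any of the 4 motifs, and the ETS match of its window lies outside the stretch shown.

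Over all kept cells the 98 genes took 2.23% of counts and the 13 protein genes of mitochondrial DNA 6.29%. Accessory subunits held 79.92% of the nuclear counts, core subunits 18.65% and assembly factors 1.422%. Core here means the subunits so marked in the list used, which in complex V were Atp5a1, Atp5b and the central stalk genes Atp5c1, Atp5d and Atp5e. The c ring and other stalk genes of complex V, which are essential to it, were counted with the accessory ones. Complex I gave 31.16% of the nuclear counts, complex V 30.48%, complex IV 24.9%, complex III 10.05% and complex II 3.417%. The 3 genes with most counts were Ndufa4, Ndufb9 and Ndufa13 in complex I, Sdhb, Sdhd and Sdha in complex II, and Uqcrh, Uqcrq and Uqcr10 in complex III. They were Cox8a, Cox4i1 and Cox5b in complex IV and Atp5b, Atp5g3 and Atp5a1 in complex V. The reads come from the 3' ends of transcripts and no value per length was formed, so these are shares of counts and not an order of molecules.

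Melanoma-like cells devoted the largest share of counts to the 98 genes among the groups described, at 3.45% over all cells and between 3.15% and 3.60% (median 3.49%) in 5 hashtags. Macrophage-like cells lay at 1.64% (1.44% to 1.79%, median 1.61%, 6 hashtags) and CD8 cells at 1.67% (1.57% to 1.73%, median 1.66%, 6 hashtags). Foxp3+ CD4 cells lay at 1.61% (1.57% to 1.67%, 3 hashtags) and the other CD4 cells at 1.51% (1.49% to 1.52%, 4 hashtags). The melanoma-like range lay above every other one, the 2 CD4 ranges did not meet, and the CD8 and macrophage-like ranges overlapped.

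Within CD8 cells the share was lowest in Tcf7+ cells without Pdcd1 (the gene of PD-1), at 1.34% with hashtags of 1.20%, 1.30% and 1.33%. Tcf7+ cells with Pdcd1, 152 barcodes of which no hashtag had 30, stood at 1.65%. Non-cycling cells with neither Tcf7 nor Havcr2 stood at 1.44% (1.40% to 1.56%) and non-cycling Havcr2+ cells at 1.53% (1.47% to 1.62%), and these ranges overlapped. Cycling Havcr2+ cells, with Mki67 or Top2a, reached 1.88% (1.86% to 1.93%, 4 hashtags), above the range of every non-cycling CD8 group.

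The MT- protein genes followed another order. They took 5.85% of counts in Tcf7+ Pdcd1- cells, 5.35% in Tcf7+ Pdcd1+ cells, 4.77% in non-cycling cells with neither gene, 4.29% in non-cycling Havcr2+ cells and 4.68% in cycling Havcr2+ cells. They took 4.01% in Foxp3+ CD4 cells, 5.05% in other CD4 cells, 4.57% in macrophage-like cells and 9.16% in melanoma-like cells. Nuclear counts per MT- protein count were 0.255 in Tcf7+ CD8 cells (0.235 to 0.280 over 3 hashtags) and 0.389 in Havcr2+ CD8 cells (0.380 to 0.398 over 6). They were 0.401 in Foxp3+ cells (0.391 to 0.408), 0.299 in other CD4 cells (0.271 to 0.321), 0.359 in macrophage-like cells (0.320 to 0.373) and 0.377 in melanoma-like cells (0.335 to 0.390). The Tcf7+ range lay below those of Havcr2+, Foxp3+, macrophage-like and melanoma-like cells, and met that of the other CD4 cells.

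**Figure D1:**
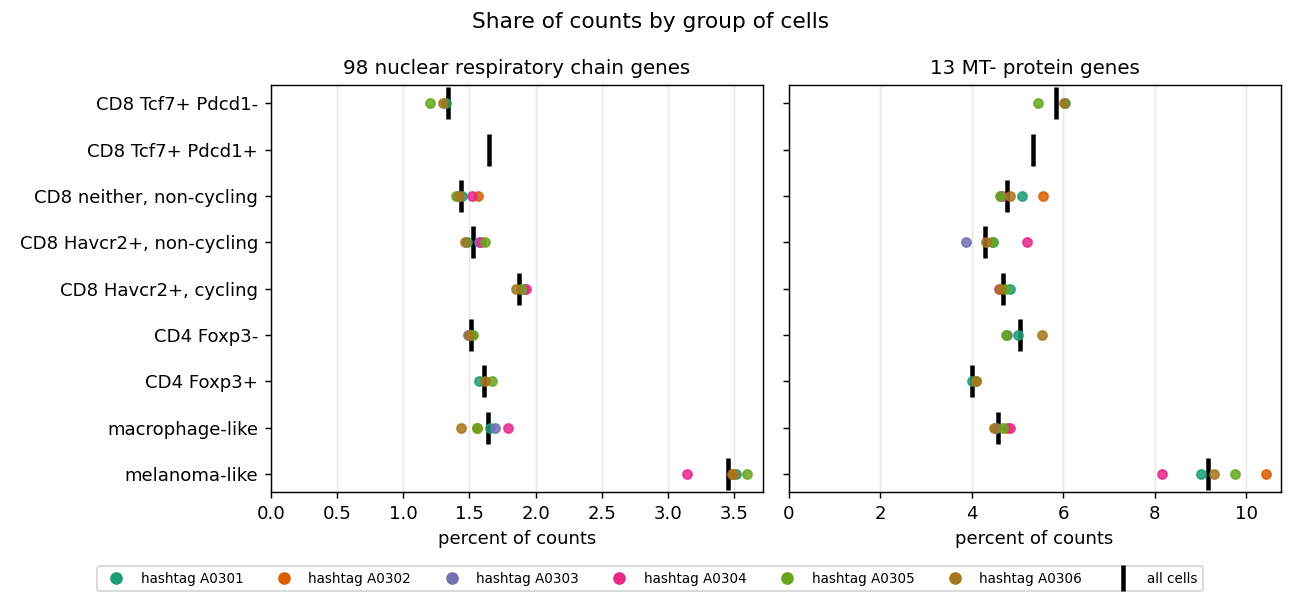
Percent of counts in the 98 nuclear respiratory chain genes (left) and the 13 MT- protein genes (right) in each group of cells, with a coloured point per hashtag of at least 30 cells and a black bar for all cells. The melanoma-like points lie apart on both panels, and Tcf7+ Pdcd1- cells are lowest of the CD8 groups on the left and highest on the right.

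Deeper barcodes gave a higher nuclear share in every group. In Tcf7+ CD8 cells it was 1.11% at 10000 to 20000 counts per cell, 1.27% at 20000 to 40000, 1.55% at 40000 to 80000 and 1.89% at 80000 to 160000. In Havcr2+ CD8 cells the same bands gave 1.29%, 1.49%, 1.75% and 1.92%, so that the groups were close in the deepest band. Other CD4 cells went from 1.18% to 1.86% over the same bands, Foxp3+ cells from 1.21% to 1.88% and macrophage-like cells from 1.27% to 1.65%. Melanoma-like cells had 3.02% and 3.37% in the upper 2 bands, above every other group there. The MT- share of Tcf7+ cells was close to flat, at 5.76% in the lowest band and 5.38% in the highest. The groups differ in depth: the median was 23508 counts in Tcf7+ and 44596 in Havcr2+ CD8 cells, 55385 in cycling and 21390 in non-cycling CD8 cells, 32440 in Foxp3+ and 18879 in other CD4 cells, 73688 in macrophage-like and 193830 in melanoma-like cells. Counts per cell can follow cell size as well as capture, and their part in the differences below was not tested beyond the matched values given.

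**Figure D2:**
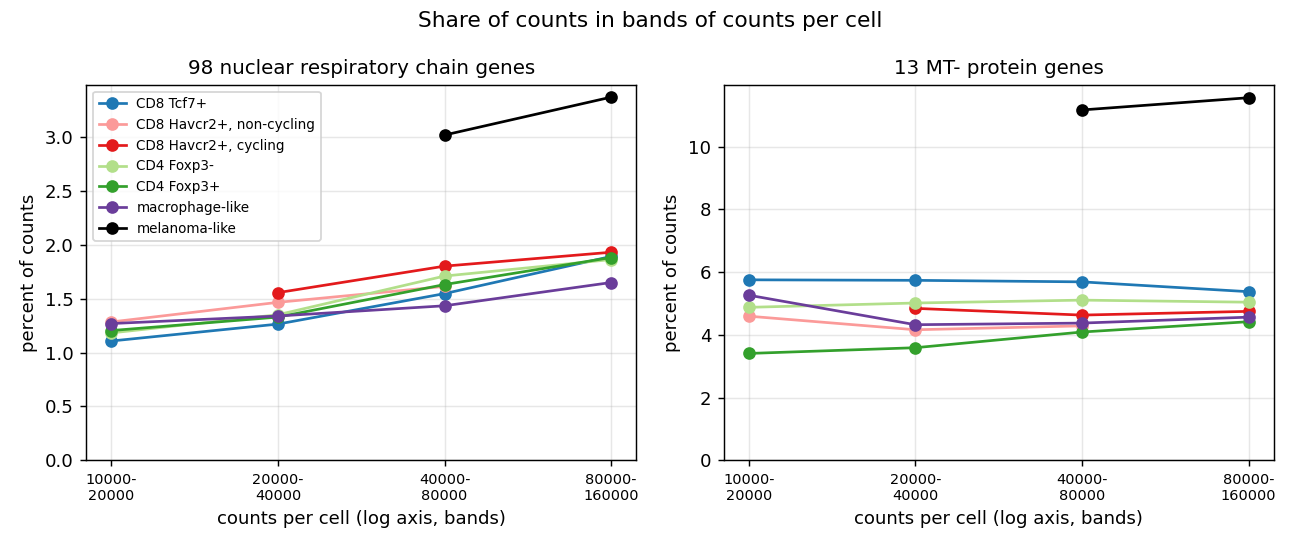
Percent of counts in the 98 nuclear genes (left) and the 13 MT- protein genes (right) for cells in 4 bands of counts per cell on a log axis, one line per group. Nuclear lines climb with depth in each group, and the melanoma-like line stays on top.

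In all, 6 comparisons were made within hashtags. A gene was examined if it averaged at least 100 counts over the summed groups of both sides, so a gene could pass through 1 side alone. It was called if the log2 ratio had the same sign in every hashtag used and a median of at least 0.5 in size. A hashtag was used if both groups had 30 cells. There were 74 genes examined in every comparison and 6 in none (Cox6a2, Cox6b2, Cox8b, Ndufa4l2, Atp5c1-ps and Uqcrh-ps1), and 15 of the 98 were called nowhere. Where a gene is said to rise or fall it was called. Several comparisons share CD8 cells or the Foxp3- CD4 cells, so their values are not independent of each other.

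Havcr2+ CD8 cells were compared with Tcf7+ CD8 cells, of which 552 of 704 lacked Pdcd1 and so did not carry the mark of precursor exhausted cells. The 152 Tcf7+ Pdcd1+ cells were too few per hashtag for a comparison of their own; over all cells their nuclear share of 1.65% lay above the 1.53% of non-cycling Havcr2+ cells, and their log2 ratio to Tcf7+ Pdcd1- cells was 0.30. The 98 genes together were higher in Havcr2+ cells by a log2 of 0.39, 0.29 and 0.27 in hashtags A0301, A0305 and A0306, and the MT- protein genes were lower by a median log2 of -0.31 (-0.34 to -0.19). Of 82 genes examined, 18 rose and 2 fell, against 31.2% of all examined genes called, 17.4% higher and 13.7% lower. The share of members called higher was thus near the background while few were lower, and the median log2 ratio over members was 0.42 against 0.08 over all genes. By sign alone, 56 genes moved the same way in all 3 hashtags against 52.0% of all genes, 49 higher against 28.8% and 7 lower against 23.2%, and at a log2 of 1 the call held for 4 genes against 10.8%. Of the 1190 Havcr2+ cells, 615 were cycling, with a median of 67986 counts against 29930 in the non-cycling ones. Non-cycling Havcr2+ cells differed from Tcf7+ cells by less in the nuclear sum (median 0.10, from 0.04 to 0.13) and showed an MT- sum of -0.40. The gene ratios below include the cycling cells. Of the 18 genes that rose, 7 also rose in cycling CD8 cells (Atp5o, Cox5a, Ndufa3, Ndufab1, Ndufb2, Ndufb8 and Uqcr11), and Cox7a2l fell in both comparisons. In cells of 20000 to 60000 counts the nuclear sum was 0.24 with 15 genes higher and 1 lower. With MT- and ribosomal protein genes left out of the totals, the nuclear sum was 0.20 with 7 genes higher and 2 lower; without hashtag A0306, 30 were higher and 3 lower.

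In complex I, 11 subunit genes rose, besides an assembly factor given below. Ndufab1, the mitochondrial acyl carrier protein, stood at 76.3, 111 and 62.2 counts per 1000000 counts (CPM) in Tcf7+ cells of hashtags A0301, A0305 and A0306, and at 148, 115 and 145 in Havcr2+ cells, with a median log2 ratio of 0.93. Ndufc2, an accessory membrane subunit, stood at 82.0, 101 and 145 CPM in Tcf7+ and 189, 212 and 180 in Havcr2+ cells, a median of 1.03. Neither gene's hashtag values overlapped between the groups. Ndufv1, the core subunit that holds the FMN site, rose by a median of 1.06 within hashtags, but over all cells, with or without a hashtag, it stood at 50.6 and 44.8 CPM. The assembly factor Ndufaf3 rose by 1.21 at low levels, 25.3 CPM in Havcr2+ and 12.4 in Tcf7+ cells. Lower values were seen for Ndufb5 (-0.31) and Ndufa6 (-0.22), neither called.

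In complex III, Uqcrb, the ubiquinone-binding accessory subunit, stood at 169, 125 and 105 CPM in Tcf7+ cells and 233, 243 and 231 in Havcr2+ cells, a median log2 ratio of 0.93 with no overlap. Uqcr11 also rose, whereas Uqcrh, the hinge subunit, had a ratio of -0.36 and was not called. In complex IV, Cox5a and Cox7b rose. Cox7a2l, known as SCAF1 and needed to join complex III to complex IV in supercomplexes, fell by 0.77 on the log2 scale, from 481, 437 and 433 CPM in Tcf7+ cells to 236, 270 and 254 in Havcr2+ cells, ranges that lie far apart. In complex V, Atp5o of the stalk and Atp5f1 rose. The complex II assembly factor Sdhaf1 fell by 1.60 on the log2 scale, from 33.8, 58.2 and 65.6 CPM to 15.4, 18.9 and 14.2, and no complex II subunit was called.

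The sums by complex were 0.37 for complex I, 0.34 for II, 0.16 for III, 0.29 for IV and 0.32 for V, and -0.17 for the assembly factors. On the mitochondrial side, MT-Nd5 alone was called, lower by a log2 of -0.50, and 12 of the 13 protein genes had medians below 0, with MT-Nd6 at 0.02. The ribosomal RNAs MT-Rnr1 and MT-Rnr2 stood at 0.03 and -0.14. Among lists of related genes, 4 of 5 cytochrome c and electron carrier genes rose (sum 0.71; Cycs 0.90, Cyc1 0.54), as did 10 of 15 glycolysis genes (sum 0.88) and 1 of 13 tricarboxylic acid cycle genes (0.36). Mitochondrial ribosomal protein genes had 23 higher and 1 lower of 71 (0.37), and cytosolic ribosomal protein genes 2 higher and 13 lower of 84 (-0.35). None of 9 mitochondrial biogenesis genes was called (-0.11), and 10 of 12 proliferation genes rose (0.83).

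Cycling CD8 cells were compared with non-cycling CD8 cells over 6 hashtags. Cycling cells had the higher nuclear sum in every hashtag, with log2 ratios of 0.24 to 0.41 (median 0.31), while the MT- sum stood at 0.00 (-0.05 to 0.10). Of 84 genes examined, 21 rose and 2 fell, against 21.9% of all genes called, 11.4% higher and 10.5% lower. The ratio was above 0 for 77 of the 84 members and for 45.96% of all genes. By sign alone, 44 genes moved one way in all 6 hashtags against 32.1% of all genes, 41 higher against 15.9% and 3 lower against 16.3%, and at a log2 of 1 none was called against 7.62%. In cells of 20000 to 60000 counts the sum was 0.18 and 7 genes were called.

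In complex V, 7 of 16 examined genes rose and the sum was 0.43. Atp5b, the catalytic beta subunit, ran from 537 to 641 CPM (median 620) in cycling and from 374 to 434 (median 389) in non-cycling cells, a log2 ratio of 0.69 with no overlap. Atp5g3, a gene of the c ring, ran from 429 to 497 against 274 to 329 CPM, also without overlap, and Atp5g1 and Atp5a1, the alpha subunit, rose by 0.51 and 0.53. In complex I, Ndufab1 ran from 129 to 165 CPM (median 138) in cycling and from 65.1 to 88.8 (median 76.5) in non-cycling cells, a ratio of 0.86 with no overlap. Ndufa4, now assigned to complex IV by many authors, ran from 340 to 408 against 209 to 304.6 CPM, a ratio of 0.75. Ndufa5 (0.83) and Ndufc1 (0.81) rose too, the first with ranges that almost met, 49.8 to 89.1 against 22.3 to 49.5 CPM.

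In complex II, the iron-sulphur subunit Sdhb rose by 0.60, and Sdhd, a membrane anchor, had a median of 0.74 with hashtags from -0.18 to 1.04 and was not called. In complex IV, Cox5b, Cox6a1 and Cox7a2 rose by 0.53, 0.59 and 0.62. The 2 genes that fell were Cox7a2l (-0.68, 220 to 337 against 348 to 487 CPM, without overlap) and Ndufa6, an accessory complex I subunit (-0.56, 106 to 141 against 148 to 219 CPM, without overlap). Sdhaf1 (-0.30), Uqcrh (-0.26) and Ndufaf3 (-0.15) had the next lowest medians and were not called. No MT- protein or ribosomal RNA gene was called, with medians from -0.26 for MT-Rnr2 to 0.23 for MT-Cytb. Of the related lists, 4 of 7 electron carrier genes (sum 0.85), 3 of 13 tricarboxylic acid cycle genes (0.42), 5 of 15 glycolysis genes (0.45) and 15 of 75 mitochondrial ribosomal genes (0.44) rose.

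**Figure D3:**
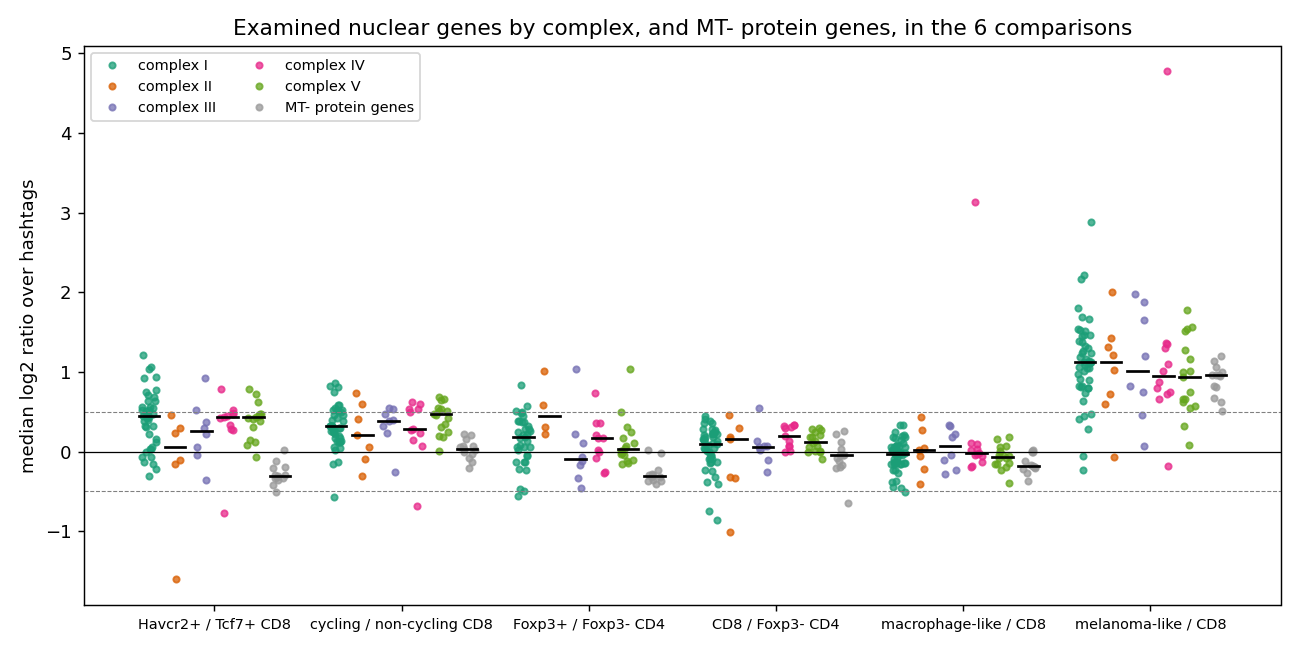
Median log2 ratio over hashtags for every examined nuclear gene, by complex, and for the MT- protein genes, in the 6 comparisons. In the first 2 comparisons most nuclear genes lie above 0, while the MT- protein genes lie mostly below 0 in the first and on both sides of it in the second, and in the melanoma-like comparison both lie near 1.

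Foxp3+ CD4 cells were compared with Foxp3- CD4 cells over 3 hashtags, 125 against 259 cells. The nuclear sum differed by a log2 of 0.11 (0.06 to 0.13), and the MT- sum was lower in Foxp3+ cells by a median of -0.32 (-0.43 to -0.22). Of 74 genes examined, 7 rose and 1 fell, against 18.6% of all genes called, 9.71% higher and 8.91% lower, so the member counts did not exceed the background. By sign alone 31 genes were called against 40.1%, 23 higher against 21.3% and 8 lower against 18.9%, and 2 were called at a log2 of 1 against 6.9%. The sign of the nuclear sum turned in cells of 20000 to 60000 counts, at -0.15 in the 1 hashtag with enough cells. Leaving out any 1 of the 3 hashtags gave 13 to 16 called genes. Fewer signs then have to match, the medians and the genes examined can change too, and their parts were not tested.

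Atp5mpl, a small membrane subunit of complex V, stood at 215, 151 and 126 CPM in Foxp3+ cells of hashtags A0301, A0305 and A0306 and at 104, 132 and 57.9 in Foxp3- cells, a median log2 ratio of 1.04 with overlapping values. Uqcr11, a small subunit of complex III, stood at 149, 137 and 120 against 72.7, 54.7 and 101 CPM, a ratio of 1.03 without overlap. Sdhb stood at 231, 305.02 and 258 against 163, 188 and 172 CPM, a ratio of 0.58, again without overlap. Ndufb3 (0.83), Cox6c (0.74), Ndufb6 (0.58) and Ndufa5 (0.51) also rose. Ndufa11, an accessory complex I subunit, fell by 0.56, from 153, 143 and 182 to 116, 89.8 and 122 CPM. Over all cells, with or without a hashtag, Ndufa11 stood close, at 139 CPM in Foxp3+ and 144 in Foxp3- cells. In the same order Cox6c stood at 399 and 355 CPM and Ndufb3 at 95.3 and 79.2. Ndufb6 stood at 165 and 119 CPM and Ndufa5 at 78.3 and 55.2. Sdhaf1 had a median of 1.01 but hashtags from -1.39 to 1.58, and Ndufa6 (-0.49), Uqcrc1 (-0.46) and Uqcrh (-0.33) were not called. No MT- gene was called, and the 12 protein genes examined had medians from -0.40 for MT-Cytb to 0.02 for MT-Nd3. Macrophage markers, 12 genes with none at 0, took 0.0603% of counts in Foxp3+ and 0.0237% in Foxp3- cells, mostly from Ccr2, and their part was not tested.

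CD8 cells differed from Foxp3- CD4 cells by a log2 of 0.13 in the nuclear sum (0.08 to 0.15, 4 hashtags) and by -0.03 in the MT- sum. Of 87 genes examined none rose and 2 fell, against 12.6% of all genes called, 4.21% higher and 8.35% lower. By sign alone 20 genes were called against 23.9%, 16 higher against 8.94% and 4 lower against 14.9%, and 1 was called at a log2 of 1 against 4.09%. In cells of 20000 to 60000 counts the nuclear sum was -0.01 in 1 hashtag, and 5 genes were called without hashtag A0305 and 4 without A0306. Both genes that fell were assembly factors of low level. Sdhaf1 had a median ratio of -1.01 (22.6 CPM in CD8 and 43.3 in CD4 cells) and Ndufaf6, of complex I assembly, -0.86 (11.1 and 18.6 CPM). The highest medians belonged to Uqcr11 (0.54), Sdhaf2 (0.46), Ndufb6 (0.45), Ndufa8 (0.41) and Ndufa7 (0.39), and Ndufaf4 (-0.74), Ndufv1 (-0.41) and Ndufaf1 (-0.39) were low, none of them called.

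Macrophage-like cells had few called members against CD8 cells while many other genes differed. The nuclear sum differed by a log2 of -0.05 (-0.20 to 0.11, 6 hashtags; 0.03 with equal weight per cell) and the MT- sum by -0.07. At matched depth the nuclear sum was lower in macrophage-like cells, at -0.22 in cells of 20000 to 60000 counts (5 hashtags), where 2 genes were higher and 6 lower. In bands of depth the nuclear shares were 1.34% and 1.44% in macrophage-like and CD8 cells at 20000 to 40000 counts, 1.44% and 1.73% at 40000 to 80000, and 1.65% and 1.93% at 80000 to 160000. Of 89 genes examined 1 rose and 1 fell, against 37.4% of all genes called, 16.4% higher and 21.0% lower. By sign alone 23 were called against 50.4%, 10 higher against 19.1% and 13 lower against 31.4%, and 1 was called at a log2 of 1 against 19.9%. T cell markers took 0.248% of macrophage-like counts against 0.679% in CD8 cells. Without barcodes that held markers of another class, 4 hashtags remained, the nuclear sum was -0.02, the MT- sum -0.35, and 8 members were higher and 6 lower.

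The gene that rose was Cox4i2, the lung and low-oxygen isoform of Cox4i1. It ran from 3.27 to 16.4 CPM (median 9.22) in the macrophage-like cells of the hashtags and from 0 to 1.37 CPM in CD8 cells, without overlap, for a median log2 ratio of 3.13 (1.67 to 5.63). With 1 hashtag left out the median was 2.12 (A0301, A0303 or A0304) or 4.15 (A0302, A0305 or A0306). At 5 or more counts it was found in 89 of 1515 macrophage-like cells, 5.87% (exact binomial 95% interval 4.74% to 7.18%), and in 2 of 4115 CD8 cells, 0.0486%, with median depths of 73688 and 28251 counts. No CD4 cell reached 5 counts, and 0 of 713 Foxp3- cells allows a share with 5 counts of up to 0.421%, which at a median of 18879 counts does not limit the share of cells that express the gene. Ndufaf7, an assembly factor, fell by 0.51 on the log2 scale, with 14.3 CPM in macrophage-like and 21.4 in CD8 cells. Both calls are near their limits. Cox4i2 had 1542 counts in all macrophage-like cells and 59 in all CD8 cells, so it met the minimum through the macrophage-like side. The 5 counts added to each sum weigh on the size of its ratio. Cox4i2 averaged 92.3 counts without hashtag A0301 and 72.8 without A0303, under the minimum, and Ndufaf7 had a ratio of -0.50, just short of a call, without A0301, A0302 or A0305. Sdhaf4 (0.44), Ndufb4c (0.34), Ndufc1 (0.34) and Uqcrb (0.33), and Ndufs1 (-0.46), Ndufaf5 (-0.44), Sdhaf1 (-0.40) and Atp5d (-0.39), were not called. No MT- gene was called, and medians ran from -0.37 for MT-Nd5 to 0.02 for MT-Nd6.

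Melanoma-like cells were compared with CD8 cells in 5 hashtags, and most genes of the chain were higher. Over these hashtags the nuclear sum exceeded that of CD8 cells by a median log2 of 1.07, from 0.87 to 1.12, and the MT- sum by 0.94 (0.74 to 1.03). Of 91 genes examined 78 rose and none fell, against 65.2% of all genes called, 35.2% higher and 30% lower. The ratio was above 0 for 87 of the 91 members and for 51.77% of all genes. By sign alone 84 were called against 73.9%, 83 higher against 39.1% and 1 lower against 34.7%, and 52 were called at a log2 of 1 against 48.2%. Among complexes, 35 of 38 examined genes rose in complex I (sum 1.29), 4 of 4 in II (0.98), 6 of 8 in III (1.16), 11 of 12 in IV (0.95) and 15 of 17 in V (0.96), and 7 of 12 assembly factors rose (0.71). The 12 macrophage markers, none at 0, took 0.143% of melanoma-like counts (0.132% to 0.159%), 1.49% of macrophage-like and 0.0215% of CD8 counts. In melanoma-like cells Apoe at 767 and Cd68 at 621 CPM made up nearly all of it, with the next marker, C1qb, at 7.92 CPM. The screen for markers of another class dropped melanoma-like barcodes only for T cell receptor and CD3 genes, not for these macrophage markers. With that screen the nuclear sum was 1.33.

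In complex I, Ndufb9, an accessory subunit, ran from 781 to 1019 CPM (median 916) in melanoma-like cells and from 98.01 to 135.8 CPM in CD8 cells, a median log2 ratio of 2.88 (2.52 to 3.20). Ndufa4 ran from 1201 to 1580 CPM (median 1532) against 277 to 342, a ratio of 2.22. Ndufa5 ran from 262 to 298 CPM against 42.1 to 69.2, a ratio of 2.17. None of these ranges overlapped. Uqcrq, an accessory complex III subunit, ran from 914 to 1003 against 215 to 272 CPM, a ratio of 1.98. Uqcr10 (1.65) rose with it, whereas Uqcrh (0.46) was not called. The complex II genes rose by 1.03 for Sdha, the flavoprotein, 0.60 for Sdhb and 1.22 for Sdhd.

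In complex V, Atp5b rose by 1.16, from a CD8 range of 482 to 549 CPM to 879 to 1178. The 3 genes of the c ring, which code for the same mature protein, rose by 1.56 for Atp5g1, 0.93 for Atp5g2 and 1.28 for Atp5g3. In complex IV, Cox4i1 rose by 0.73, Cox8a by 1.10, Cox5b by 1.01, Cox6a1 by 0.87, Cox6b1 by 0.66, Cox7a2 by 1.36 and Cox7b by 0.80. Among assembly factors, Sdhaf3 had the highest ratio, 2.00, at 15.7 CPM in melanoma-like and 4.17 in CD8 cells, where it was the lowest of the assembly factors, and Ndufaf8, at 60.9 and 42.0 CPM, was not called.

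The genes with the lowest ratios were Ndufb7 (-0.23, 173 and 204 CPM), Cox7a2l (-0.18, 287 and 322 CPM), Sdhaf2 (-0.07), Ndufaf7 (-0.05) and Uqcrc2 (0.07), and none was called. Of the MT- protein genes 12 of 13 rose, from 0.63 for MT-Nd5 to 1.20 for MT-Cytb, and MT-Nd6 at 0.51 was not called. The ribosomal RNA genes MT-Rnr1 and MT-Rnr2 had medians of 0.41 and -0.36 and were not called. Of the related lists, 5 of 7 electron carrier genes rose (sum 1.58), as did 12 of 13 tricarboxylic acid cycle genes (1.09) and 13 of 15 glycolysis genes with 1 lower (1.71). Mitochondrial ribosomal genes had 50 higher and 3 lower of 78 (0.74), and cytosolic ribosomal genes 3 higher and 54 lower of 84 (-0.75). Of 16 mitochondrial biogenesis and transcription genes, 5 rose and 5 fell (sum 0.34). The coactivator gene Ppargc1a rose by 6.10, and Myc (1.57), Esrra (1.60), Slirp (1.29) and Lrpprc (1.25) rose. Genes of the factors whose motifs were searched fell: Nrf1 (-0.94), Gabpa (-1.47), its partner Gabpb1 (-2.60) and Yy1 (-0.79), along with Tfam (-0.68), which packages mitochondrial DNA. Of 12 proliferation genes none rose and 7 fell (-0.77), and 4 of 6 hypoxia genes rose with 1 lower (2.09).

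Cox7a1, the heart and muscle isoform of Cox7a2, had the highest ratio of the examined members, 4.77 (4.31 to 5.07). It had 5391 counts in all melanoma-like cells and 92 in all CD8 cells, so it met the minimum through the melanoma-like side. The 5 counts added to each sum weigh on the size of its ratio. It ran from 20.3 to 32.96 CPM (median 25.9) in the melanoma-like cells of the hashtags and from 0 to 0.980 CPM in CD8 cells, without overlap. It reached 5 counts in 343 of 1012 melanoma-like cells, 33.9% (30.98% to 36.9%), in 18 of 1515 macrophage-like cells, 1.19%, and in 5 of 4115 CD8 cells, 0.122%. These cells differ in median depth (193830, 73688 and 28251 counts), but of all Cox7a1 counts in kept cells 90.4% lay in melanoma-like cells. Even there Cox7a1 gave 3.34% of the counts of the Cox7a1 and Cox7a2 pair, against 0.695% in macrophage-like and 0.190% in CD8 cells. Melanoma-like cells with Cox7a1 had 3.76% of counts in the 98 genes and a median of 221700 counts, and those without had 3.25% and 175900.

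The other rare isoforms were each found in few cells. Cox4i2 gave 1.71% of the Cox4i1 and Cox4i2 counts in macrophage-like cells, 0.0556% in CD8 and 0.0227% in melanoma-like cells. Cox6a2, a heart and muscle isoform that plasmacytoid dendritic cells also express, gave 1.64% of its pair with Cox6a1 in macrophage-like cells, where 51 cells had 5 counts, 0.0906% in CD8 cells and 0.0991% in melanoma-like cells. In those 51 cells the plasmacytoid markers Siglech and Ccr9 stood at 0 and 0.145 CPM. Tcf4, another such marker, stood at 53.3 CPM there and at 64.0 in the other macrophage-like cells. The 6 dendritic cell-like barcodes with 5 counts of Cox6a2 had 1662 CPM of Siglech, 908 of Ccr9 and 605 of Tcf4. Dendritic cell-like barcodes held 17.5% of all Cox6a2 counts. Cox6b2, known from testis, gave 0.486% of its pair with Cox6b1 in CD8 cells, 0.607% in macrophage-like cells and 0.00459% in melanoma-like cells, where there were 6 counts in all and none of 1012 cells reached 5 (up to 0.296% of cells with 5 counts, not of cells expressing it). Cox8b had no count in the CD8, CD4 or macrophage-like groups and 122 counts in melanoma-like cells, where 6 cells reached 5 counts. All T cell-like barcodes together held 0.813% of its counts. Ndufa4l2, a low-oxygen counterpart of Ndufa4, had 85 counts in all kept cells.

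**Figure D4:**
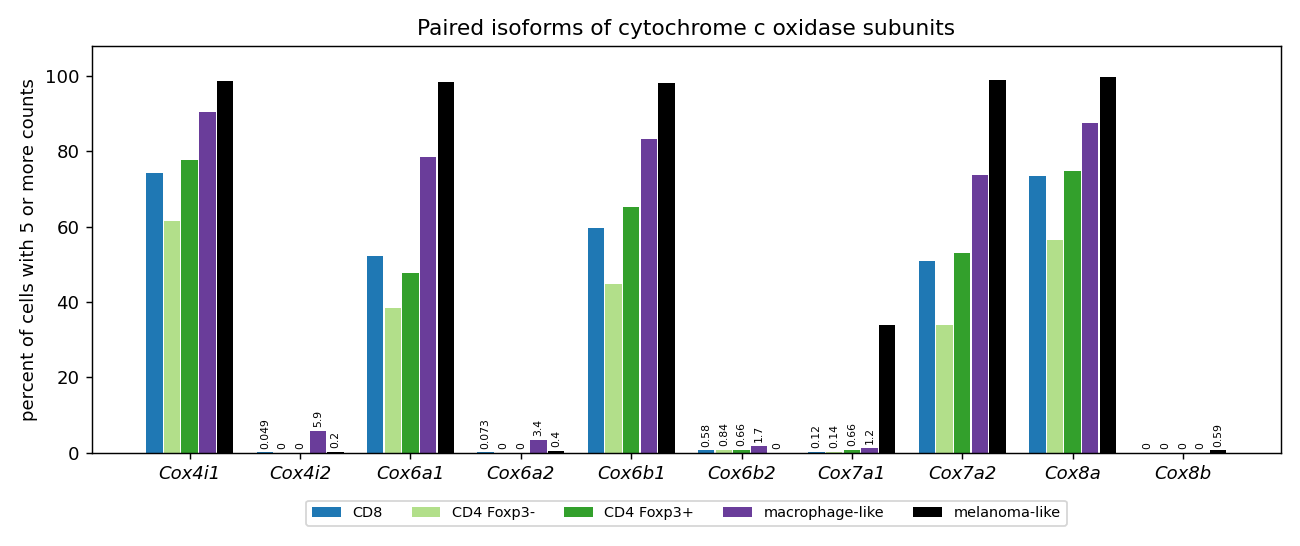
Percent of cells with 5 or more counts of each of 5 pairs of complex IV isoforms, in bars from 0, for CD8, Foxp3+ CD4, other CD4, macrophage-like and melanoma-like cells. The common isoforms reach 5 counts in 33.8% or more of the cells of each group, and the rare ones stay near 0 except Cox7a1 at 33.9% of melanoma-like cells and Cox4i2 at 5.87% and Cox6a2 at 3.37% of macrophage-like cells.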

How the data were processed

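Single-cell mRNA and hashtag libraries of 1 capture were analysed. The authors deposited whole-number counts per gene and barcode and per hashtag and barcode. The submitters' processing notes list the build GRCm38 and, without roles, Bowtie2 in versions 2.3.4.1 and 2.4.2, cutadapt (2.10) and R (3.5.3). The sources used here do not say whether reads of a molecule were merged. The median non-zero count was 7 and 56.1% of them exceeded 5, so counts were treated as reads, a gene was scored present at 5 counts (set after the values were seen), and intervals cover counting error only.

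Of 12016 barcodes, 279 had under 500 genes and 675 over 25% MT- counts, and 11318 were kept. They were clustered with scanpy 1.11.5 (anndata 0.12.19, leidenalg 0.10.2, igraph 0.11.9; 3000 variable genes without the 98 genes and MT- genes, 40 components, 20 neighbours, resolution 1) and named from marker lists. A name other than T cell needed 3 markers in 20% of cells at a fold of 2, and a T cell name needed 5 markers at a mean log2 fold of 0.4. Unnamed clusters held 460 barcodes. A doublet caller marked 1 cell and was judged not to have worked, so doublets were not removed, and an alternative left out the highest 5% of scores. Barcodes were matched to the hashtag table by number, and 11808 of 12016 occur in both. A hashtag was called by likelihood over a background mixture. Of the 14 hashtag columns, 8 belong to no sample in the labels and gave no values.

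Counts were summed per hashtag and group, scaled to the group's total, and compared as log2 ratios with 5 counts added. With 1 capture and hashtags of unknown genotype there is no test and no p-value. The call rule was run on simulated sums with known changes and an assumed spread between sums. That spread was not estimated from these data, so the run gives no rate of false calls for them. Sequences are from RefSeq and gene positions from the GRCm38 annotation. Genes were named if among the 5 highest or 5 lowest ratios of a comparison or among the 3 with most counts per complex, and paired isoforms, assembly factors and MT- genes were named too. Some other genes were named after their values were seen, and 1 result under the rule is not reported here. Members, lists and rules were chosen with earlier results of these data known. Alternatives changed scaling, weighting, thinning to 10000 counts, gates, clustering, minimums and the hashtags left out. One, cells of 20000 to 60000 counts, was added after seeing the data.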

Additional observations from a re-analysis of the deposited data

Results flagged for a closer look

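Of 48 sets of 4 to 6 hashtag values checked, 4 held a value far from the others, and chance gives about 1 such set in 20. The 3 sets that involve melanoma-like cells share the same cells and are not independent. In melanoma-like cells the 98 genes took 3.146% of counts in hashtag A0304, against 3.485% to 3.596% in the other 4 hashtags. The log2 ratio of melanoma-like to CD8 cells in A0304 was 0.8658 for the 98 genes, against 1.057 to 1.123, and 0.7287 for complex V, against 0.9415 to 1. A0304 had 40 melanoma-like cells, of which 65% lay in the cluster led by Apol6, Ubd and Iigp1, against 3.65% to 16.4% in the other hashtags. That cluster had a nuclear share of 3.11% over all its cells and the other melanoma-like cluster 3.52%, and the part of this in the low value was not tested. In the comparison of CD8 with Foxp3- CD4 cells, the complex V ratio of hashtag A0305 was -0.01785, against 0.1528 to 0.1677 in the other 3.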

How the results depend on the processing

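Over 18 results and 375 alternatives, 71 values moved by more than the spread between hashtags or, for counts of genes, by more than 1.5 times, and the cause was not tested. No paired analysis was possible because the labels give no shared replicate numbers, beyond the log2 ratios themselves, which are formed within each hashtag.

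For Havcr2+ against Tcf7+ CD8 cells, the nuclear sum was 0.1997 when scaled without MT- and ribosomal protein genes, 0.3941 with equal weight per cell, 0.3755 thinned, 0.3613 without barcodes holding other markers (1 hashtag), 0.3581 with a gate of 1 count and 0.3615 with 10 cells per group. The MT- sum was -0.3903 under the first of these and -0.5014 without other markers. The count of called genes was 9 under the first, 32 with equal weight, 4 at a log2 of 1, 56 on sign alone and 21 to 33 with a hashtag left out.

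For cycling against non-cycling cells, the nuclear sum was 0.1806 at 20000 to 60000 counts. The MT- sum was 0.0633 thinned and -0.0673 with no MT- limit. The count was 0 at a log2 of 1, 44 on sign alone and 7 at 20000 to 60000 counts (18 to 27 with a hashtag left out).

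For Foxp3+ against Foxp3- CD4 cells, the nuclear sum was 0.0584 without MT- and ribosomal genes, 0.1619 with equal weight, 0.0238 without Mki67 or Top2a cells, 0.2201 with a gate of 1 and -0.1461 at 20000 to 60000 counts. The MT- sum was -0.4326 with equal weight, -0.44 thinned, -0.5165 without Mki67 or Top2a cells and -0.4977 at 20000 to 60000 counts. The count was 4 thinned, 5 pooled, 19 without Mki67 or Top2a cells, 2 at a log2 of 1, 31 on sign alone, 19 at 20000 to 60000 counts and 13 to 16 with a hashtag left out.

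For CD8 against Foxp3- CD4 cells, the nuclear sum was 0.1755 thinned, 0.073 without Mki67 or Top2a cells, 0.0812 without other markers, 0.2378 with a gate of 1 and -0.0116 at 20000 to 60000 counts. The count was 7 with equal weight, 4 thinned, 5 without Mki67 or Top2a cells, 21 without other markers (1 hashtag), 10 with a gate of 1, 1 with 10 cells per group, 7 with no minimum, 1 at a log2 of 1, 20 on sign alone, 11 at 20000 to 60000 counts (1 hashtag) and 2 to 5 with a hashtag left out.

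For macrophage-like against CD8 cells, the nuclear sum was -0.2152 at 20000 to 60000 counts. The MT- sum was -0.1455 without MT- and ribosomal genes, -0.1707 without Mki67 or Top2a cells and -0.349 without other markers. The count was 7 pooled, 14 without other markers, 1 without the highest 5% of doublet scores, 4 with no minimum, 1 at a log2 of 1, 23 on sign alone, 8 at 20000 to 60000 counts and 0 to 3 with a hashtag left out.

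For melanoma-like against CD8 cells, the nuclear sum was 1.2274 with equal weight, 1.2002 thinned, 1.2919 without Mki67 or Top2a cells and 1.3297 without other markers. The MT- sum was 0.581 with MT- genes at most 10%. The count of 78 ran from 52 to 84 over its alternatives.

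Settings that left no hashtag with 30 cells gave no value: cells without other markers for the cycling and Foxp3 comparisons, and cells of 20000 to 60000 counts for the melanoma-like one. Removing Mki67 or Top2a cells could not be run for the cycling comparison. Depth limits the assembly factors and rare isoforms most, and 6 genes never reached 100 counts per group.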

Other observations

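Clusters outside the compared groups differed in the same genes. Neutrophil-like cells (139 barcodes, median 9287 counts) had 0.482% of counts in the 98 genes and 5.29% in MT- protein genes, or 0.0912 nuclear counts per MT- count, below every other cluster. Dendritic cell-like barcodes stood at 1.51% and 4.18%. An unnamed shallow cluster with melanoma markers (283 barcodes, median 7154 counts) had 3.38% and 10.6%, near the melanoma-like values at a far lower depth. Of the few Ndufa4l2 counts, 57.6% lay in the 26-barcode fibroblast-like cluster.

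Ndufb9, the complex I gene with the highest ratio in melanoma-like cells, lies at chr15:58933756-58939488 on the plus strand (GRCm38). Of 16 examined genes within 1 Mb, 8 were called higher and 1 lower in melanoma-like against CD8 cells, with a median log2 ratio of 0.80, against 35.2% and 30% of all genes. Its direct neighbours Tatdn1 and Mtss1 had ratios of 2.94 and 2.14, Sqle had 4.31, and Fbxo32 had -1.60. DNA copy number was not measured. These genes were looked at after the value of Ndufb9 was seen.

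Macrophage-like cells with Cox4i2 (89 cells, median 120900 counts) had 65.8 CPM of Arg1 and 1619 of Cxcl9, and those without (1426 cells, median 70930) had 332 and 1048. The cells were chosen by the counts of a single gene, so deeper cells are favoured.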
